A study of Rattus norvegicus with 6 samples.

Results

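Peroxisome proliferator-activated receptors (PPARs), their partners and a set of lipid uptake genes were followed in rat nucleus pulposus cells with and without serum. The set holds 10 genes, picked by symbol from the 17093 genes of the tables: the receptors Ppara, Ppard and Pparg, their dimer partner Rxra, the coactivator Ppargc1a, and the lipid handling genes Angptl4, Lpl, Cd36, Fabp3 and Fabp4. All 10 symbols were matched, each to 1 row. RNA was sequenced from primary intervertebral disc cells of male rats, at passages 3 to 6. The serum starvation group (3 libraries) had 48 h in a medium lacking fetal bovine serum, and the control group (3 libraries, untreated, also labelled 48 h) stayed in 10% serum. Both groups shared the DMEM-F12 medium with antibiotics, and no genetic change is labelled. Whether replicates are separate animals or separate dishes is not labelled. The p-values therefore reflect the spread among these 6 libraries alone, and that spread may be technical.

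PPARs are nuclear receptors that bind fatty acids and their derivatives and, as dimers with a retinoid X receptor such as RXRA, bind direct repeats of the hexamer AGGTCA near the genes they control. PPARA and PPARD drive genes of fatty acid oxidation, PPARG drives fat storage, and PGC-1α (Ppargc1a) strengthens their action. ANGPTL4, a secreted protein encoded by a classic PPAR target, inhibits lipoprotein lipase (Lpl), the enzyme that frees fatty acids from lipoproteins. CD36 takes long-chain fatty acids into the cell, and fatty acid binding proteins (FABPs) carry them through the cytosol. The nucleus pulposus is the gel-like core of the disc and has no blood vessels of its own, so its lipids and other nutrients arrive by diffusion.

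In serum-starved cells Angptl4 rose about 29-fold, while Ppard, the most abundant of the receptor genes, and Fabp3, the heart-type binding protein gene, fell. Rxra and Ppara did not pass the test. The other 5 genes (Pparg, Ppargc1a, Lpl, Cd36 and Fabp4) did not reach 1 in 3 or more libraries, the filter used, and were not tested. So 1 tested gene rose, 2 fell and 2 did not pass, with limma and a Benjamini-Hochberg threshold of 0.05, against a background of 61.1% of all 11493 tested genes called in either direction (31.7% higher and 29.4% lower). Groups did not overlap for 3 of the 5 tested genes, against 68.2% of all tested genes. Both shares lie near the background, so the counts by themselves say nothing about these genes. What follows describes each gene by its size and its place in the pathway.

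Values are the deposited ones, taken as FPKM (fragments scaled to transcript length and library size), so levels may be compared between genes per length. Folds are ratios of mean values, and log2 differences compare log2(value + 1) without serum to that with serum, given with a standard error (SE). Library sums ran from 447788 to 473452 without serum and from 522165 to 530095 with it, and the depth in reads is unknown. Scaling all libraries to the same total moved the median log2 difference of all tested genes from 0.03 to 0.20, and the share of higher genes among all calls from 51.8% to 69.5%. Under that scaling Angptl4 differed by 4.76, Ppard by -0.45 and Fabp3 by -1.11, all 3 still past the threshold. The labelled cell type was checked against 16 marker symbols of nucleus pulposus, of which 13 were matched. Cd44, Slc2a1, Pax1 and Foxf1 were well above 1 in every library, although Cd44, Slc2a1 and Foxf1 fell without serum and Pax1 rose. Mean values of Acan fell from 77.5 in control to 3.05, of Sox9 from 5.11 to 1.27 and of Car12 from 1.76 to 0.05. Car3 rose from 1.03 to 26.15. Col2a1 was at most 0.06 and Krt18 was listed at 0 throughout. The sum of these markers was 498 to 560 in control and 222 to 237 in serum-starved libraries, with 2 of 10 tested markers higher and 7 lower, and the part of this in the results was not tested. All 9 matched genes of the annulus and fibroblast list were present, with S100a4 the most abundant (4 rose, 1 fell and 4 did not pass), so these markers do not set the cultures apart from fibroblast-like disc cells. In such bulk samples, fewer cells of a type and less RNA per cell cannot be told apart.

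Among the receptors, Ppard (gene ID 25682) was at 26.1, 24.8 and 31.4 in control replicates 1, 2 and 3, and at 18.7, 15.9 and 17.3 in serum-starved replicates 1, 2 and 3. Every serum-starved library lay below every control. The means were 27.4 ± 3.49 and 17.3 ± 1.41 (SD, n = 3 each), 1.59-fold lower without serum, with a log2 difference of -0.64 ± 0.101 (SE; limma, Benjamini-Hochberg adjusted p = 0.000785). The difference ranged from -0.70 to -0.54 when single libraries were left out, and in each case it passed.

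Ppara (gene ID 25747), the receptor best known from liver, was far lower in level. It was at 0.77, 1.03 and 1.19 in the controls and at 1.13, 1.76 and 1.24 without serum, so the groups overlapped. The log2 difference was 0.25 ± 0.136 (limma, Benjamini-Hochberg adjusted p = 0.145), and the adjusted p was 0.0551 with libraries scaled to the same total, the lowest among the alternatives tried. Pparg (gene ID 25664), the receptor of fat cells, was at 0.35, 0.52 and 0.23 in the controls and at 1.07, 1.24 and 0.49 in serum-starved cells. Serum-starved replicate 3 fell within the control range and the other serum-starved libraries lay above it. Pparg was below the filter. With no filter its log2 difference was 0.48 (limma, Benjamini-Hochberg adjusted p = 0.0481).

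Together the receptor genes summed to 28.8 ± 3.50 in control and 19.6 ± 1.13 in serum-starved libraries (SD, n = 3 each). Ppard made up 95.2% ± 0.964 of that sum in controls and 88.1% ± 3.59 without serum. The Ppara share went from 3.45% ± 0.560 to 7.10% ± 2.02 and the Pparg share from 1.32% ± 0.637 to 4.76% ± 2.02, with no overlap between groups for any of these shares. These shares were chosen after the values were seen and were not tested. Within each library, Ppard was 33.9, 24.1 and 26.4 times Ppara in the controls and 16.5, 9.01 and 13.9 times Ppara without serum. This ratio of deposited values does not depend on how libraries are scaled. The groups did not overlap. The test used the log2 ratio of value + 1 instead, in which the added 1 lets scaling enter. The exact two-sided permutation test of 3 libraries against 3 gave p = 0.1, the smallest it can give (adjusted p = 0.1 over 2 ratios compared).

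**Figure D1:**
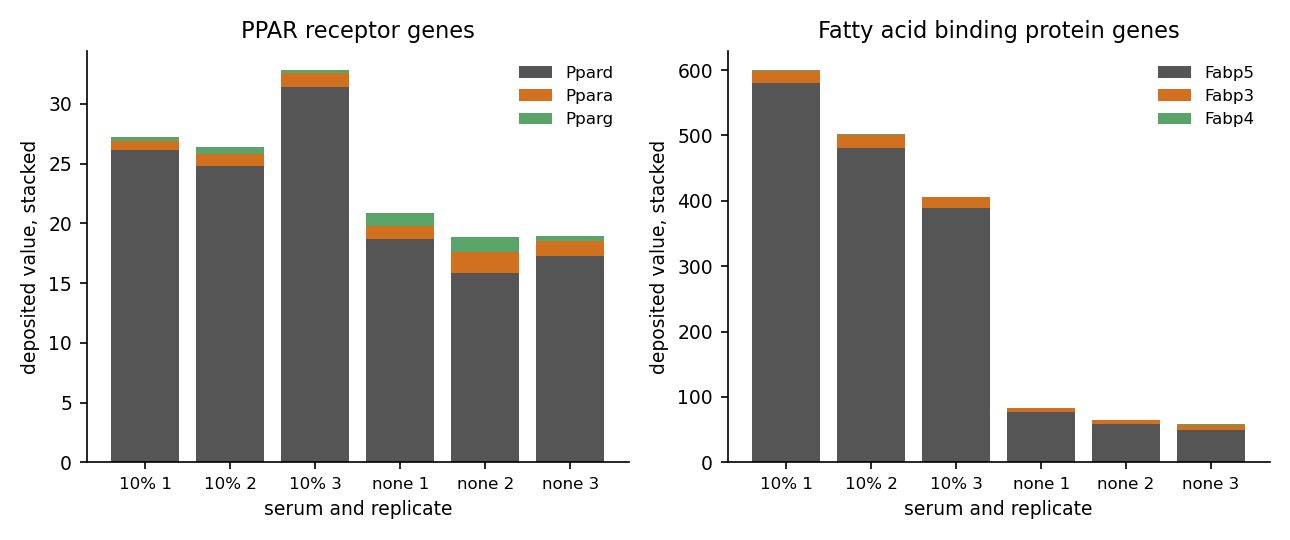
Deposited values of the PPAR receptor genes (left) and of the fatty acid binding protein genes Fabp5, Fabp3 and Fabp4 (right), stacked for each of the 6 libraries (x axis: serum and replicate). Ppard fills most of each left bar, and the right bars drop from between 407 and 600 in control to between 58.1 and 83.7 in serum-starved libraries.

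Rxra (gene ID 25271), the shared dimer partner, was at 15.5, 17.0 and 16.5 in the controls and at 14.2, 17.9 and 16.5 without serum. The groups overlapped fully, with a log2 difference of -0.01 ± 0.0921 (limma, Benjamini-Hochberg adjusted p = 0.915). Its ratio to Ppard was 0.59, 0.68 and 0.53 in the controls and 0.76, 1.13 and 0.96 without serum, and these groups did not overlap (exact two-sided permutation p = 0.1, adjusted p = 0.1 over 2 ratios). Ppargc1a (gene ID 83516) was close to 0, at 0.01, 0.08 and 0.07 in the controls and 0.13, 0.20 and 0.16 in serum-starved cells. Its groups did not overlap, which held for 22.8% of all 5600 genes below the filter. With no filter the log2 difference was 0.14 (limma, Benjamini-Hochberg adjusted p = 0.0209), but values this low in tables rounded to 2 decimals carry little precision.

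Other partners and cofactors of nuclear receptors, from a list of 20 symbols with 18 tested, showed 9 rises, 4 falls and 5 genes that did not pass. Their median log2 difference was 0.20, against 0.03 over all tested genes. Ncoa1, a steroid receptor coactivator, rose from 3.42 ± 0.313 to 6.79 ± 0.845, the acetyltransferase gene Kat2b from 21.7 ± 2.05 to 37.3 ± 6.65, and the corepressor gene Nrip1 from 1.62 ± 0.0252 to 3.15 ± 0.150 (SD, n = 3 each). The general coactivators Ep300 and Crebbp rose from 10.8 ± 0.539 to 16.4 ± 1.88 and from 5.08 ± 0.464 to 7.62 ± 0.638. Members that fell included Lpin1, which encodes a phosphatidate phosphatase that also coactivates PPARA (1.31-fold). Scaled to the same total, 0 genes of this list fell. Rxrb, a sister of Rxra, did not pass (1.11-fold higher; limma, Benjamini-Hochberg adjusted p = 0.178).

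Angptl4 (gene ID 362850) was at 1.39, 1.16 and 5.28 in control replicates 1, 2 and 3, and at 68.9, 84.5 and 76.2 in serum-starved replicates 1, 2 and 3. Control replicate 3 stood above the other controls, and the lowest serum-starved library was still far above it. The means were 2.61 ± 2.32 and 76.5 ± 7.82 (SD, n = 3 each), 29.3-fold higher without serum, and the ratio was 60.0 without control replicate 3. The log2 difference was 4.60 ± 0.351 (limma, Benjamini-Hochberg adjusted p = 1.38e-05), ranging from 4.32 to 5.09 with single libraries left out. It ranked as number 2 among the rises of all tested genes, and its mean rose from above 42.4% of all genes in control to above 94.1% in serum-starved cells. Fat cells, which express Angptl4 strongly, were looked for by 14 marker symbols, of which 13 were matched. Adipoq and Cidec, which define that cell type, were listed at 0 in all libraries, but an exact 0 can be a failed estimate in these tables, so nothing is read from it. Of the 13, 11 were below 1 in every library. Among these, Cfd (0.03 ± 0.0520 in control and 0.837 ± 0.174 without serum), Tshr (0.127 ± 0.0115 and 0.447 ± 0.254) and Adrb3 (0.12 in each control and 0.39 ± 0.0265) had higher values without serum and no overlap, and were not tested. The summed level of the list was 1.85 to 1.95 in control and 8.20 to 9.17 in serum-starved libraries, most of it from Lipe and Cebpa. Both were called as rises. Both were below 1 in every control and reached the filter only through the serum-starved libraries, so no other call than a rise was possible. The part of the higher sum in the Angptl4 difference was not tested. Both tested relatives went the other way. Angptl2, a secreted protein of the same family, fell 1.62-fold from 88.3 ± 3.00 to 54.4 ± 6.80, and Angptl8, which like ANGPTL4 acts on lipoprotein lipase, fell from 1.77 ± 0.521 to 0.917 ± 0.186 (SD, n = 3 each). Angptl8 did not pass without serum-starved replicate 1 or 3 or without control replicate 3, so 1 of these 2 genes was then called.

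**Figure D2:**
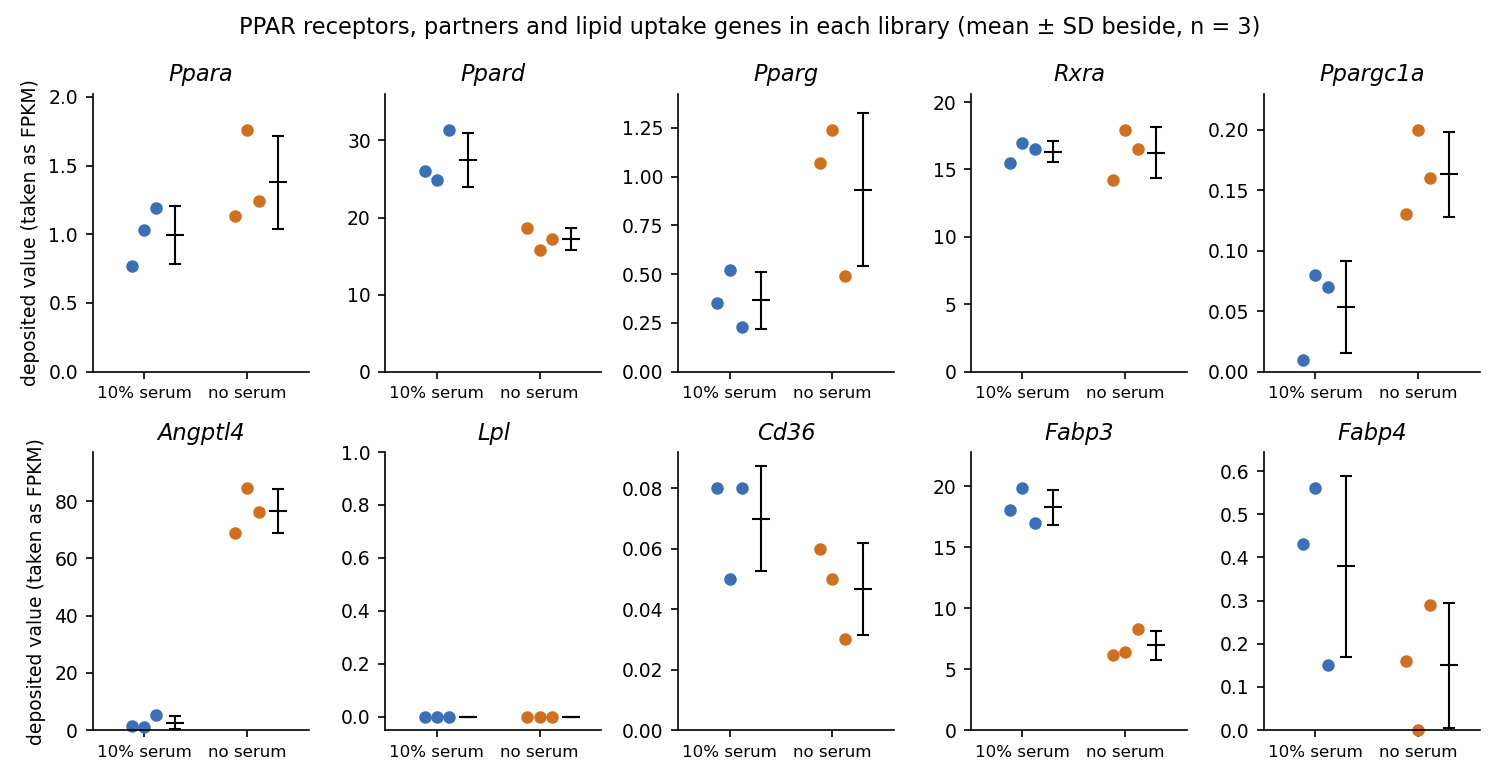
Deposited values (y axis, taken as FPKM, a separate scale in each panel) of the 10 genes in control (10% serum, blue) and serum-starved (no serum, orange) libraries, with mean ± SD beside the points (n = 3). Angptl4 moves from at most 5.28 to at least 68.9, Ppard and Fabp3 move down without overlap, and Lpl lies at 0 in every library.

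Lpl (gene ID 24539), the enzyme that ANGPTL4 inhibits, was listed at 0 in all 6 libraries. Such a zero can be a failed estimate in these tables. Hprt1, a housekeeping gene picked for this check once its values were known, was at 0.15, 0 and 0 in the controls but at 12.4, 10.9 and 8.59 without serum, and Krt18 was listed at 0 throughout beside Krt8 at 1.13 to 3.71. No ratio of Angptl4 to Lpl was therefore formed, and nothing is read from the zeros of Lpl.

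Among 19 symbols for partners of lipoprotein lipase and receptors that take up lipoproteins, 12 genes were tested, with 5 rises, 5 falls and 2 genes that did not pass (median log2 difference 0.03). Angptl8 was among the falls. The receptor gene Lrp8 was 3.50-fold lower, Vldlr, whose product binds triglyceride-rich particles, 2.65-fold, and Scarb1, which encodes a receptor for high-density lipoprotein, 2.43-fold. Lrp1, a large endocytic receptor, rose 1.53-fold to 230 ± 28.8. Sel1l, needed for the maturation of lipoprotein lipase, rose 1.57-fold. Lmf1 and Lmf2, named as lipase maturation factor genes, did not pass (1.06-fold higher and 1.03-fold lower). The convertase genes Furin and Pcsk6, whose products cleave ANGPTL proteins and lipases, rose 1.28-fold and 1.72-fold.

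Cd36 (gene ID 29184) was at 0.08, 0.05 and 0.08 in the controls and at 0.06, 0.05 and 0.03 without serum, near 0 in every library and with overlapping groups. Macrophages and endothelial cells, which express it, were sought with 15 and 12 marker symbols. Of these, 6 macrophage and 6 endothelial genes were matched, and 4 in each list were below 1 in every library. Their sums were 23.7 to 30.2 (macrophage) and 8.50 to 11.4 (endothelial) in control, and 10.7 to 14.3 and 6.29 to 6.97 without serum, carried mostly by Cd14 and Egfl7. Of 2 tested macrophage markers, Cd14 fell 2.91-fold and Cd68 rose 1.73-fold (1.96 ± 0.467 to 3.38 ± 0.600), and the only tested endothelial marker, Egfl7, fell 1.53-fold. Other genes for the entry and activation of fatty acids (18 symbols, 14 tested) showed 7 falls, 2 rises and 5 genes that did not pass (median log2 difference -0.26). The caveolin gene Cav1 fell 1.88-fold to 242 ± 20.4, Got2, whose product also binds fatty acids at the membrane, 1.90-fold, and the acyl-CoA synthetase genes Acsl4, Acsl5 and Acsl1 fell 1.82-fold, 1.67-fold and 1.56-fold. The fatty acid transport protein gene Slc27a1 did not pass (17.4 ± 1.47 and 18.0 ± 1.48), and Slc27a3 rose 1.55-fold. Scaled to the same total, 5 genes of this list rose and 5 fell. The median log2 difference was then -0.075, against 0.20 over all tested genes under that scaling.

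Fabp3 (gene ID 79131), the fatty acid binding protein of heart and muscle, was at 18.0, 19.8 and 17.0 in the controls and at 6.17, 6.39 and 8.29 in serum-starved cells. Every serum-starved library lay well below every control. Its mean fell 2.63-fold, from 18.3 ± 1.45 to 6.95 ± 1.17 (SD, n = 3 each), with a log2 difference of -1.28 ± 0.112 (limma, Benjamini-Hochberg adjusted p = 2.93e-05), ranging from -1.40 to -1.21 with single libraries left out. Striated muscle was sought with 12 marker symbols, of which 8 were matched. Myh2 and Ttn were listed at 0, from which nothing is read, as for Lpl. Of the 8, 7 were below 1 in all libraries, and the sums overlapped between groups (5.09 to 7.21 in control, 5.97 to 7.07 without serum), nearly all from Tnnt3. Fabp4 (gene ID 79451), the fat cell form, was low and scattered, at 0.43, 0.56 and 0.15 in the controls and at 0.16, 0 and 0.29 without serum, with overlapping groups.

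The most abundant gene of that family lay outside the set. Fabp5, the epidermal form, was at 581, 482 and 390 in the controls and at 77.3, 58.1 and 49.5 without serum, 7.85-fold lower (log2 difference -2.96 ± 0.181; limma, Benjamini-Hochberg adjusted p = 4e-06). As the stacked bars of the families show, Fabp5, Fabp3 and Fabp4 together dropped from 503 ± 96.5 to 68.8 ± 13.3 (SD, n = 3 each). The share of Fabp3 in that sum went up, from 3.71% ± 0.618 to 10.5% ± 3.49, since Fabp3 fell less than Fabp5. The related retinoid carriers Crabp1 (16.1 ± 3.73 to 0.25 ± 0.174) and Crabp2 (71.5 ± 25.6 to 13.1 ± 4.70) also fell, so all 3 tested genes of the 11 symbols on the list of other binding proteins were lower.

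**Figure D3:**
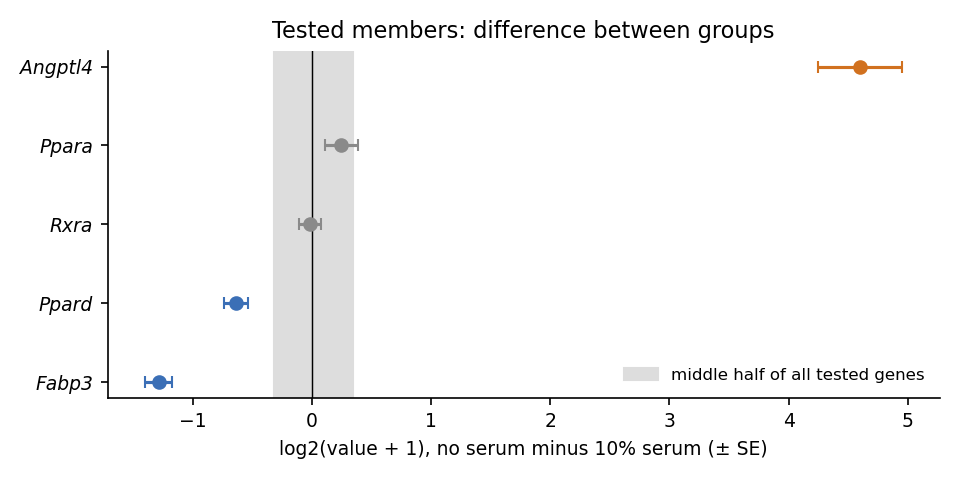
Log2 difference (x axis, no serum minus 10% serum on the log2(value + 1) scale, ± SE) of the 5 tested genes, with the interquartile range of all tested genes, from -0.32 to 0.35, shaded in grey. Angptl4 (rose) and Ppard and Fabp3 (fell) lie outside the band, and Rxra and Ppara (grey points) within it.

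By level, the order in control libraries was Ppard, Fabp3, Rxra, Angptl4, Ppara, Fabp4, Pparg, Cd36 and Ppargc1a, with Lpl left out of the order because of its zeros. The ranges of Fabp3 and Rxra, Angptl4 and Ppara, Fabp4 and Pparg, and Cd36 and Ppargc1a overlapped, so these neighbours were not set apart. In serum-starved libraries Angptl4 came first, followed by Ppard, Rxra, Fabp3, Ppara, Pparg, Ppargc1a, Fabp4 and Cd36, and the ranges of Ppard and Rxra, of Ppara and Pparg, and of Fabp4 with Ppargc1a and with Cd36 overlapped.

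Genes of fatty acid oxidation and ketone formation that are known PPAR targets rose in 15 of 18 tested cases (26 symbols). The other 3 did not pass, 0 fell, and the median log2 difference was 0.70, against 0.03 over all tested genes. Over all tested genes 31.7% rose, and this list was chosen with earlier results of these data known. Across the alternatives between 14 (of 17 tested) and 18 (of 25 tested, with no filter) rose and none fell. Cpt1a, which encodes the enzyme that admits long-chain fatty acids to mitochondria, was at 4.32, 4.12 and 5.91 in the controls and at 62.6, 60.0 and 56.6 without serum, 12.5-fold higher (log2 difference 3.40 ± 0.115; limma, Benjamini-Hochberg adjusted p = 1.85e-07). Pdk4, an inhibitory kinase of pyruvate dehydrogenase, rose 8.54-fold to 14.2 ± 0.422. Hadha, the alpha subunit of the mitochondrial trifunctional protein, rose 4.25-fold to 165 ± 2.80, and its partner Hadhb rose 1.68-fold. Ucp2, Acaa2 and Acot2 rose 2.92-fold, 2.77-fold and 2.15-fold. The peroxisomal enzyme gene Acaa1a (9.83 in control and 9.22 without serum) did not pass, and neither did Cpt2. Peroxisomal catalase (Cat) rose 1.68-fold.

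Genes of lipid storage were split, since of 8 tested genes (16 symbols) 3 rose, 1 fell and 4 did not pass (median log2 difference 0.09). Plin2, the lipid droplet coat gene and a common readout of PPAR activity, was at 76.2, 71.2 and 69.8 in the controls and at 92.8, 69.8 and 67.5 without serum, and did not pass (limma, Benjamini-Hochberg adjusted p = 0.632). The lipase genes Lipe and Pnpla2 rose 5.54-fold and 1.82-fold, to 4.78 ± 0.243 and 36.7 ± 10.3. G0s2, an inhibitor of the latter lipase, fell from 2.57 ± 1.01 to 0.227 ± 0.302. Without any one serum-starved library only 1 gene of this list rose, and without any one control library 0 fell, since Lipe and Mgll or G0s2 then no longer reached the filter in 3 libraries. Lipe and Mgll had reached it only through the serum-starved libraries and G0s2 only through the controls, so the direction of these calls was fixed beforehand.

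**Figure D4:**
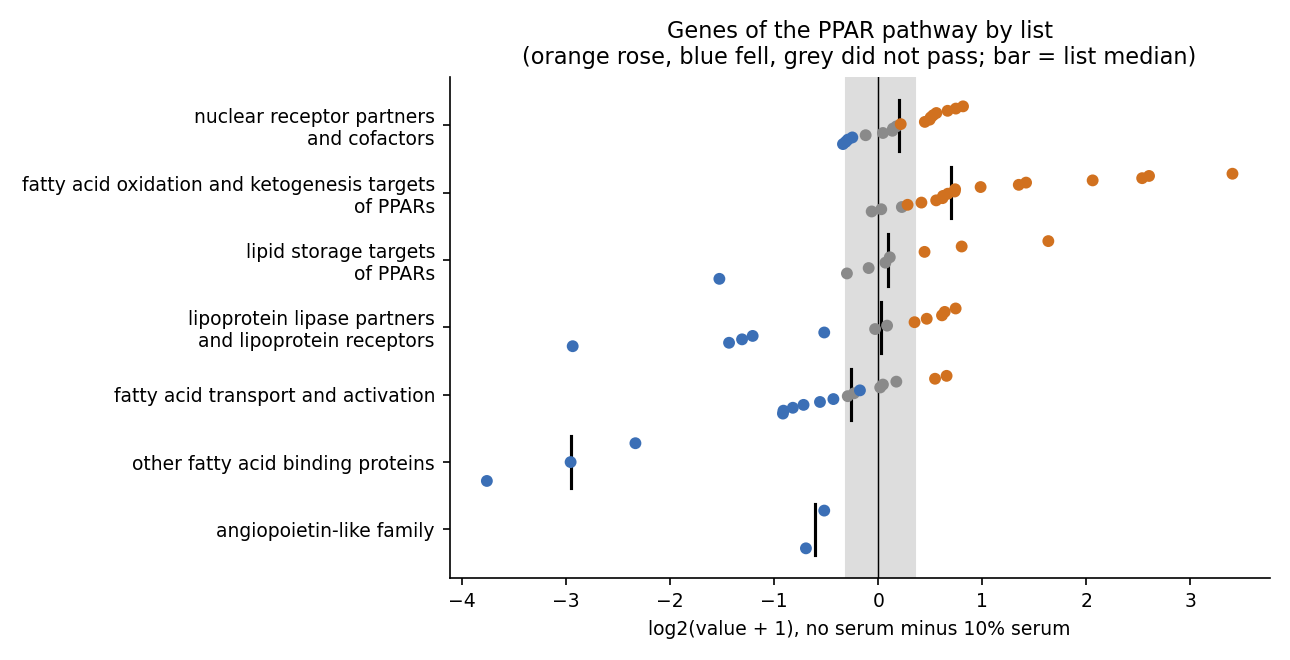
Log2 difference (x axis, no serum minus 10% serum) of every tested gene on the lists around the PPAR pathway, 1 point per gene, coloured by call, with the list median as a bar and the interquartile range of all tested genes in grey. Oxidation targets lie mostly to the right (15 rose, 0 fell), and binding proteins to the left (3 fell).

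Sequence before the start sites was read for these genes from RefSeq (GRCr8), 250 bases per start. Windows were found for 7 of the 10 genes (8 windows, 2 of them of Pparg) and for 19 of the 26 oxidation targets. Each was searched on both strands for a direct repeat of 2 hexamers AGGTCA separated by 1 base of any kind (TGACCT and 1 base between on the other strand), with 12 positions compared. An exact match stood in 0.0508% of all 33469 windows, up to 1 mismatch in 0.368%, up to 2 in 3.15% and up to 3 in 21.4%. Of the 8 windows of the set 0 came within 2 mismatches, and 1, that of Fabp3, came within 3. Of the 19 windows of oxidation targets 3 came within 2 mismatches (Acadvl, Cat and Ucp3) and 6 within 3. Not all of these belong to genes that rose. Ucp3 was at most 0.03 in every library and was not tested, and Cyp4a2 (3 mismatches) was not matched to a value. Hadha and Hadhb, both with 3 mismatches, were counted separately for the same stretch of DNA. The nearest stretches are shown for the gene that rose most, for Fabp3, and for the oxidation genes that rose and came nearest, each with up to 25 bases on either side and the nearest match in capitals, 5′ to 3′ on the strand of the gene.
Angptl4 (4 mismatches, chr7:15258774-15258836, minus strand): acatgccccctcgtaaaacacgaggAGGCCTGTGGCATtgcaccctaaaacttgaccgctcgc
Fabp3 (3 mismatches, chr5:147935910-147935972, plus strand): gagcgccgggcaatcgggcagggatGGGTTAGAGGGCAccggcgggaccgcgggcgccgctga
Acadvl (1 mismatch, chr10:55236706-55236747, minus strand): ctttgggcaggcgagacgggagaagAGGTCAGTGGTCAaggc
Cat (2 mismatches, chr3:110329658-110329720, minus strand): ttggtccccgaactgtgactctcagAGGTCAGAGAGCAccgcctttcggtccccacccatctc
Hadha (3 mismatches, chr6:31907581-31907643, plus strand): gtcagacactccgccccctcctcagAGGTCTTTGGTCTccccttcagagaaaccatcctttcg

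The Hadha stretch is also the nearest match of Hadhb, read there on the other strand, because the start sites of these genes face away from each other across one shared stretch of DNA. Acadvl, the very long chain acyl-CoA dehydrogenase gene, rose 1.56-fold (23.1 ± 2.02 to 36.1 ± 3.32), less than Cpt1a, whose own nearest match had 4 mismatches. Angptl4, with the largest difference, also had 4. A match of letters is a description of these windows only and does not show binding, and a window without one says nothing of the receptor, which may bind elsewhere.

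The genes with the profile most like those that changed were sought by the root mean square difference in log2(value + 1), centred on each gene's mean, over the 6 libraries. Tested genes with duplicated symbols, symbols turned into dates or symbols starting with LOC were left out of the search. Closest to Angptl4 were Nov, a secreted CCN-family protein gene (0.40), and Cp, which encodes the copper carrier ceruloplasmin (0.49). Closest to Ppard were Porcn (0.04) and Kcnq5 (0.04), and closest to Fabp3 were Cmc2 (0.105) and Got1 (0.109). Cp, like Angptl4, was highest among controls in replicate 3 (7.98 against 4.24 and 4.03) and highest without serum in replicate 2 (95.1 against 71.1 and 80.3). Nov was likewise highest in control replicate 3 (15.2) and in serum-starved replicate 2 (432). As Cp and Nov were picked for their likeness over these same 6 libraries, this follows in part from the choice.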

How the data were processed

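The authors deposited 1 table per library with 1 value per gene, rounded to 2 decimals. No unit is named in the file headers. The deposited values are taken as FPKM: they hold decimals, and their totals differ between libraries. Tools named in the submitters' processing notes are HISAT2, StringTie, bcl2fastq 2.0, limma and DESeq2, and the build named there is mm10, of mouse, although the gene IDs are rat. Of these IDs 93.2% matched a rat gene in the GRCr8 table, including all 10 members. Strand setting and the handling of fragments that match several genes are not given in the sources used here. Ribosomal RNA was depleted and cDNA primed at random, per the labels' protocols.

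The 11493 genes that reached 1 in 3 or more of the 6 libraries were tested as log2(value + 1). The fit used limma 3.58.1 (R 4.3.3) with treatment as its single term and trended empirical Bayes variances. P-values were adjusted over all tested genes by Benjamini-Hochberg, with a threshold of 0.05. On data simulated over 11493 genes, 100 genes were changed by each size, drawn from the more abundant ones. Of these, 97% of genes changed by 1 on the log2 scale and 64% of those changed by 0.5 were recovered, with 3.6% false calls. The real contrast called 61.1% of genes, so its rates may differ, and low genes such as Ppara were not covered. Ratios within a library were tested as log2 ratios of value + 1 with exact permutation (scipy 1.17.1). Of 6 listed pairs, 4 held a gene below the filter and were not formed. Plots were made with matplotlib 3.10.9.

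The members and lists were chosen with earlier results of these data known. Named genes were all 10 members, up to 3 called genes with the largest change and the most abundant uncalled gene of each list, the markers at 0 and the most abundant of each marker list, and the 2 most similar profiles. Some genes that this rule names are not reported here. Other list genes, and Hprt1, were named after their values were seen.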

Additional observations from a re-analysis of the deposited data

How the results depend on the processing

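Settings tried were pseudocounts of 0.1 and 0.5, no filter or one at 5, 3 scalings, no intensity trend, library weights, a replicate block and leaving out each library. Angptl4 rose, and Ppard and Fabp3 fell, past the threshold under all of them, and Rxra and Ppara did not pass under any in which they were tested. With no filter 3 of these genes rose in place of 1, as Pparg and Ppargc1a entered, while 3996 of all 16684 genes rose. Both had low values, and the Pparg groups overlapped. The Rxra difference, -0.01, was 0.17 with equal totals and 0.026 after quantile normalization, and lay between -0.084 and 0.075 with single libraries left out. The counts of all genes higher and lower, 3640 and 3384, stayed within 1.5 times under every setting. They moved most with equal totals, to 5303 and 2327. Same-numbered libraries of the groups showed no shared deviation (r = 0.037, -0.162 and 0.101 for numbers 1, 2 and 3), so the numbers were not taken as pairs. A replicate block gave 3508 higher and 3293 lower genes and changed no call among the 5 tested genes. Depth is unknown, so the precision of values near 0 (Cd36, Ppargc1a, Fabp4 and Lpl) cannot be stated.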

Other observations

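Of 27 genes on the pathway lists that were below the filter, 6 had groups that did not overlap, a share close to the 22.8% found over all 5600 genes below the filter. They are given as values, without a test. Cpt1b, the muscle form of the carnitine transferase, was at 0.377 ± 0.179 in control and 1.24 ± 0.262 in serum-starved libraries (SD, n = 3 each). Ehhadh, a peroxisomal oxidation enzyme, was at 0.0833 ± 0.0569 and 0.410 ± 0.102. Fgf21, a hormone of fasting, was at 0.25, 0 and 0 in the controls and at 0.83, 0.78 and 0.89 without serum. Plin4, a lipid droplet coat gene, was at 0.08 ± 0.01 and 0.507 ± 0.165. Pmp2, a binding protein of myelin, was at 0.10, 0.25 and 0.15 in the controls and listed at 0 without serum, while Fabp12 was listed at 0 in the controls and at 0.03, 0.04 and 0.04 without serum.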
